A study of Homo sapiens with 4 samples.

Results

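Long intergenic non-coding RNA genes were followed through the acute loss of the elongation factor IWS1. The members are all genes of the deposited table whose symbol is LINC followed by digits, the form of name given to intergenic long non-coding RNAs. They are 119 of 10147 genes. RNA synthesis was measured by TT-seq, in which 4-thiouridine is fed to cells for a few minutes and only the newly made, labelled RNA is sequenced. The cells were K562, a line established from a chronic myelogenous leukemia, edited so that the endogenous *IWS1* gene encodes a protein with an N-terminal dTAG, a degron. All samples carry this edit, and unedited cells were not part of the comparison. The dIWS1 samples received 500 nM dTAG7, a ligand that sends the tagged protein to the proteasome, and the control samples received the solvent DMSO. Both treatments lasted 1 h and ended with 5 min in 500 µM 4-thiouridine. The labels give 2 samples for each group, described as biological replicates.

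LINC genes are transcribed by RNA polymerase II from loci between coding genes. Most of their transcripts are capped and spliced, many stay in the nucleus, and many are destroyed by the nuclear exosome soon after they are made. A short labelling pulse reads their synthesis before most of that decay. IWS1 travels with elongating polymerase and binds SPT6, a histone chaperone of the elongation complex.

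Reads were recovered for 3 library columns. They comprised 1 control column, which enters the deposited mean with the weight of 2 libraries, and 2 dIWS1 columns. Values below are reads divided by the spike-in size factor of the column, called normalized counts, and they follow the order control, dIWS1 column 1, dIWS1 column 2. The columns held 29832118, 20684301 and 20886697 reads in genes, of which the LINC genes took 0.949%, 1.04% and 0.963%. The labels give 2 control samples, but the table yields 1 control value per gene, which is 1 library entered 2 times or the sum of 2 libraries with the same size factor. The spread between control libraries is therefore not seen, and each p-value below assumes that the control column varies like the dIWS1 columns. In the limma voom fit the variance was pooled over all genes tested, giving 9906 degrees of freedom for each gene. A p-value or standard error (SE) thus reflects the level of a gene and a common spread between the dIWS1 columns, hardly the gene's own spread. The cells are a bulk population, in which a change in every cell and a larger change in some cells cannot be told apart. Of 14 fixed K562 markers 12 are in the table, with means from 131 to 36695 normalized counts, while *GFI1B* and *BCR* are not listed. Of 10 markers of T cells, B cells, liver and epithelium only *CD3D* is listed, with a mean of 108. The degron acts on the protein, so the reads of *IWS1* do not check the depletion. They were 3649, 2350 and 2640, a log2 fold change of -0.55 ± 0.15 (SE), adjusted p = 0.000837.

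The members differ widely in length and level. RefSeq matched 97 by their symbol and 22 by an older name, and 118 had a usable gene span, from 0.437 to 437.745 kb with a median of 12.1 kb. RefSeq now lists 114 as long non-coding RNA, 4 as protein coding and 1 as a pseudogene. *LINC00493* is now *SMIM26* and *LINC00998* is now *SMIM30*, both genes for small membrane proteins, and *LINC00152* is *CYTOR*, a cytoplasmic long non-coding RNA. Of the names, 8 have become divergent transcript names and 3 have become antisense names. The lowest mean was 7.97 normalized counts, the median 224 and the highest 36200. Labelled reads were concentrated, since 3 genes held 37.9% of all control reads in members and 10 genes held 63.8%. The test covered 115 members and 9906 genes with a mean of at least 10 reads per column. *LINC01144*, *LINC00526*, *LINC01063* and *LINC01431* were too low to be tested.

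Promoters are shown for members with low and with high ratios, chosen because their base composition differed. The 6 members called higher than the median gene, a test given further below, had no listed promoter, so their windows are not shown. Each window runs from 250 bases before to 50 bases after the start given by RefSeq (GRCh38.p14), reads 5′ to 3′ on the strand of the gene, and carries in capitals every GGGCGG (the core of a GC box), CCAAT or TATAAA found on either strand. *LINC00641* (chr14:21206851-21207150, minus strand) and *LINC01355* (chr1:23285469-23285768, minus strand) had the lowest ratios of dIWS1 to control among members with a mean of at least 100 and a listed promoter. *LINC01578* (chr15:92882593-92882892, plus strand), now *CHASERR*, and *LINC00888* (chr3:183447358-183447657, plus strand), now *SNHG33*, had the highest. Neither was called by limma voom under the spike-in scaling, against 0 or against the median gene. The dIWS1 columns of each lay on either side of the control.
LINC00641: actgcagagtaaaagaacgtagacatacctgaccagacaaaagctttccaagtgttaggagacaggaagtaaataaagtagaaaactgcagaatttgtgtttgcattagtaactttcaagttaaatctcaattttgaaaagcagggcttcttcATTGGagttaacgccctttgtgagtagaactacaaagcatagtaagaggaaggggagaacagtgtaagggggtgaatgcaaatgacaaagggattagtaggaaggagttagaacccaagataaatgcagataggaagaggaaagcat
LINC01355: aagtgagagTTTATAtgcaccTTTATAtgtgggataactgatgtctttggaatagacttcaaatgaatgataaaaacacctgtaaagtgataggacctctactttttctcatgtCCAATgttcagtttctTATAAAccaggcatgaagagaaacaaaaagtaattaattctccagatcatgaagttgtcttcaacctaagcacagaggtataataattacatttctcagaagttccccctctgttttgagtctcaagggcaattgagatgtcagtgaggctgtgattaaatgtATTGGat
LINC00888: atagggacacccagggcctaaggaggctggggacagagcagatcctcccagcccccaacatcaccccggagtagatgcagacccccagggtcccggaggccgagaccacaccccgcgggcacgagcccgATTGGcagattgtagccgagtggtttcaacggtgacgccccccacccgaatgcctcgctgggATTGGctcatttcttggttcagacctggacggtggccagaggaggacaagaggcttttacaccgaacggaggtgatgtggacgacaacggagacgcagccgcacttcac
LINC01578: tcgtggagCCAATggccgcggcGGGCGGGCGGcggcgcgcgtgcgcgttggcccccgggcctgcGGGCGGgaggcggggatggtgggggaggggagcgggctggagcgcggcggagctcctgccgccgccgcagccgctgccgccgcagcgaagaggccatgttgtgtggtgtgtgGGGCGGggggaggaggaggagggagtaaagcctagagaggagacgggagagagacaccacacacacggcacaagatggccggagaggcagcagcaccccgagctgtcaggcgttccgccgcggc

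The windows of the pair that fell were AT-rich, with 39.0% and 35.3% G or C, against 62.7% for *LINC00888* and 74.7% for *LINC01578*. The CpG ratio, the number of CG pairs over the number that the base composition would give, was 0.197 for *LINC00641* and 0 for *LINC01355*. It was 0.645 for *LINC00888* and 0.928 for *LINC01578*, which also held 4 GC boxes. The next lowest members with a listed promoter, *LINC01176* and *LINC00339*, had 37.3% and 54.7% G or C. How the promoters of all members compare is given further below.

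IWS1 depletion lowered labelled RNA of most LINC genes. Of 115 tested members, 76 (66.1%) were called lower in dIWS1 and 1 was called higher (limma voom, adjusted p under 0.05). Over all 9906 genes 65.6% were called lower and 0.101% higher, so the share of members that fell was near that of the table. Scaled by total reads in genes in place of the spike-ins, which moves the median of all genes up by 0.44 on the log2 scale, 25 members were called lower and 15 higher, where 14.2% and 19.4% of all genes were called. The median log2 ratio of dIWS1 to control was -0.51 for LINC genes and -0.42 for all genes. In dIWS1 column 1 the medians were -0.50 and -0.47, and in column 2 they were -0.56 and -0.37. The median of LINC genes lay 0.03 below that of all genes in one column and 0.19 below in the other, and the difference of medians was not tested. Both dIWS1 columns were below the control in 100 members (87.0%, against 93.0% of all genes) and both were above it in 7 (6.09%, against 1.65%). In the 8 others the columns fell on either side of the control.

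**Figure D1:**
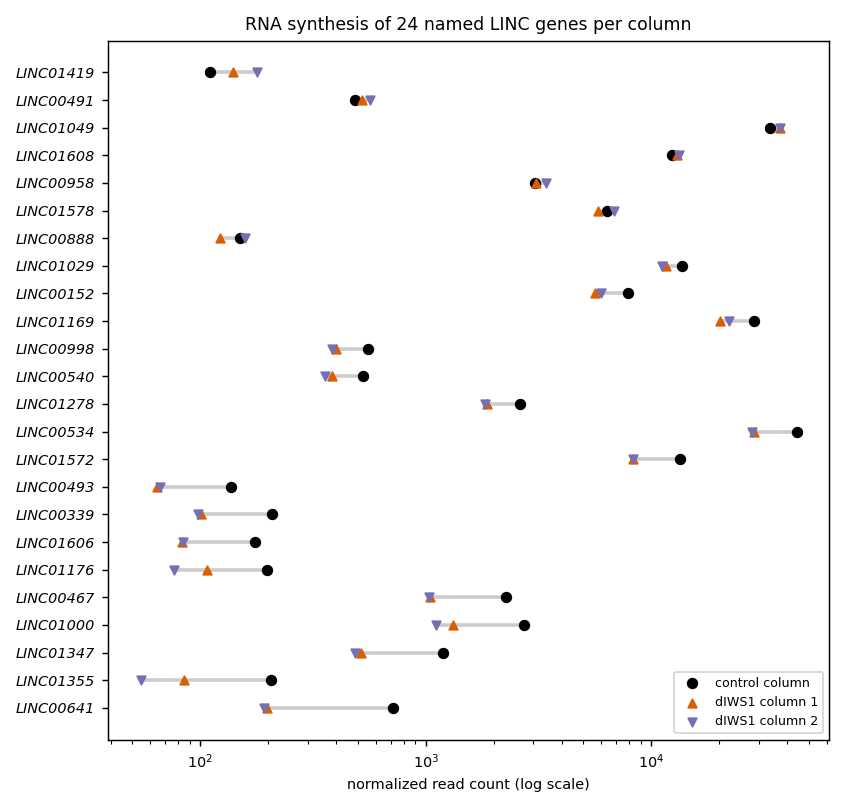
Normalized read counts (horizontal axis, log scale) of 24 named LINC genes in the control column (black circles) and in dIWS1 columns 1 (upward triangles) and 2 (downward triangles), 1 gene a line, ordered by fitted log2 fold change. *LINC00641* at the bottom went from 717 to 198 and 191, and *LINC01419* at the top from 111 to 139 and 178.

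The spread of responses was wide among LINC genes, as it was among other long non-coding RNA genes. The middle of the distribution, from the first to the third quartile, ran from -0.78 to -0.29 for LINC genes, a width of 0.490, and from -0.59 to -0.26 for all genes, a width of 0.331. The width was 0.492 for antisense genes and 0.476 for long non-coding RNA genes other than LINC. Each gene was therefore also tested against the median gene, that is with its log2 fold change taken relative to the fitted median of -0.42. On that scale 18 members (15.7%) were called lower and 6 (5.22%) higher, where 4.85% and 2.95% of all genes were called. These counts depended on the test, with 10 lower and 3 higher in limma-trend (2.79% and 1.3% of all genes), and 29 and 15 when the control column was entered 2 times (15.6% and 10.9% of all genes). Antisense genes, with names ending in AS with or without a number, gave 17.2% lower and 1.86% higher (n = 215), and their median log2 ratio was -0.58. Long non-coding RNA genes other than LINC gave 13.9% and 1.95% (n = 462). Protein-coding genes gave 4.08% and 2.96% (n = 9019), with a median of -0.41. Low counts widen a distribution, and LINC genes had a median of 306 control reads against 1135 for all genes tested. Among members with 1000 or more control normalized counts (n = 39), 12.8% were called lower and 10.3% higher than the median gene, against 3.21% and 1.72% of all genes at that level. Among the 41 with 100 to 1000, 9 were called lower and 2 higher, against 6.87% and 4.99% of all genes. Members with fewer than 100 had a median log2 ratio of -0.67 (n = 35), where all genes at that level had -0.49.

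**Figure D2:**
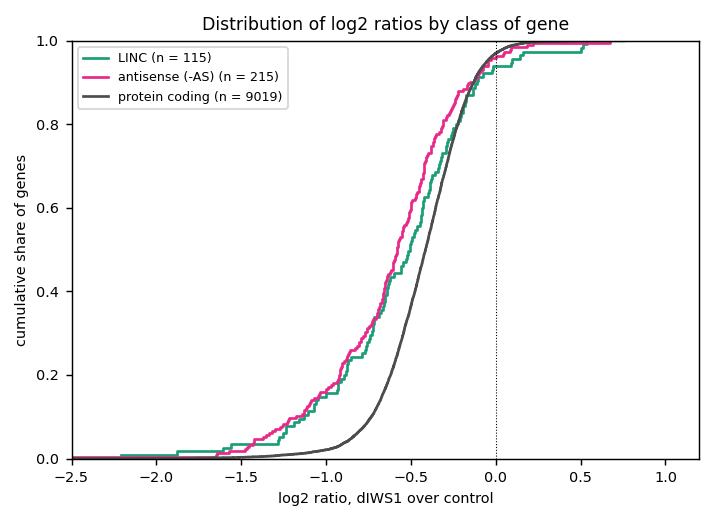
Cumulative share of genes (vertical axis) by log2 ratio of dIWS1 over control (horizontal axis) for LINC, antisense and protein-coding genes, with a dotted line at 0. The LINC curve rises earlier than the curve of coding genes on the left, with medians of -0.51 and -0.41, and lies close to the curve of antisense genes there.

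Among members with a mean of 100 or more, *LINC00641* had the lowest value. It held 717, 198 and 191 normalized counts. Both dIWS1 columns were far below the control and close to each other, with a log2 fold change of -1.88 ± 0.14 (SE) and an adjusted p of 2.02e-36. *LINC01355* had 206, 84.6 and 54.4, with a change of -1.59 ± 0.18 (adjusted p = 1.71e-15). Its dIWS1 columns lay farther apart from each other than those of *LINC00641*, and both were below the control. *LINC01347* had 1197, 518 and 487, and changed by -1.25 ± 0.13. *LINC01000* had 2719, 1321 and 1110, a change of -1.17 ± 0.15. In these 4 genes each dIWS1 value was far under the control. *LINC00467*, whose transcript has been reported to encode a small mitochondrial protein, had 2275, 1046 and 1036, and changed by -1.13 ± 0.14 with an adjusted p of 4.02e-13. *LINC01176* had 197, 107 and 76.1, *LINC01606* 175, 82.6 and 83.7, and *LINC00339* 209, 101 and 97.9. Their log2 fold changes were -1.12, -1.07 and -1.07, with SE between 0.17 and 0.18, and no dIWS1 value reached its control. All 8 were also called lower than the median gene, with adjusted p from 3.31e-21 for *LINC00641* to 0.0102 for *LINC01606*. *LINC00493* (*SMIM26*), needed for mitochondrial respiration, had 137, 64.4 and 66.3, and changed by -1.06 ± 0.20. *SMIM30*, named above with *SMIM26* as a gene for a small membrane protein, behaved like the median gene. *LINC00998* (*SMIM30*) had 555, 401 and 383, a change of -0.50 ± 0.13, and its value against the median gene was -0.08 (adjusted p = 0.761).

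The most heavily transcribed members did not share a direction. *LINC00534* had the most control reads and held 44115, 28506 and 28065 normalized counts, a log2 fold change of -0.64 ± 0.13 (adjusted p = 1.44e-05). *LINC01049* held 33636, 37350 and 37053, so that both dIWS1 columns lay above the control while the change of 0.15 ± 0.14 was not called (adjusted p = 0.321). *LINC01169* held 28698, 20268 and 22085, a change of -0.44 ± 0.14, close to the median gene. *LINC01029* held 13662, 11663 and 11119. Its change of -0.26 ± 0.15 was not called, with an adjusted p of 0.0959. *LINC01572* held 13366, 8275 and 8331, a change of -0.69 ± 0.15. Per kilobase of gene span, a scale on which levels of different genes can be set side by side, *LINC01049* was first with 800 control normalized counts per kb and *LINC01029* second with 609. *LINC01578* (*CHASERR*), a long non-coding RNA transcribed next to *CHD2* and known to limit the output of that gene, followed with 401. It held 6377, 5826 and 6805, on either side of the control, and changed by -0.02 ± 0.15. *LINC00958* and *LINC00998* came next, with 305 and 302 per kb. *LINC00152* (*CYTOR*) held 7848, 5631 and 5973 normalized counts and changed by -0.44 ± 0.15 (adjusted p = 0.00748). The 3 members nearest the median member, *LINC01278*, *LINC00540* and *LINC00998*, had changes of -0.51, -0.50 and -0.50. *LINC00888* (*SNHG33*) is the only member whose span holds annotated small RNAs, the snoRNAs *SNORA63D* and *SNORA63E*. It had 151, 122 and 158, a change of -0.12 ± 0.17 (adjusted p = 0.512).

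A few members kept or exceeded the control level while most genes fell. *LINC01419* was the single LINC gene called higher. It had 111, 139 and 178 normalized counts, a log2 fold change of 0.50 ± 0.18 with an adjusted p of 0.0130, and the gap between the dIWS1 columns was wider than that between the control and column 1. *LINC00491* had 485, 523 and 563, a change of 0.16 ± 0.13. *LINC01608* had 12347, 13016 and 13340, a change of 0.09 ± 0.15. *LINC00958* had 3058, 3071 and 3430, a change of 0.09 ± 0.15. None of these last 3 was called against 0. Together with *LINC01049* and *LINC01419* they were called higher than the median gene, by 0.92 for *LINC01419* (adjusted p = 4.90e-05), 0.58 for *LINC00491*, 0.57 for *LINC01049*, 0.52 for *LINC01608* and 0.51 for *LINC00958*. *LINC00520* was the sixth, with 1124, 1085 and 1127 normalized counts, 0.40 above the median gene (adjusted p = 0.0447). It falls outside the rule for named genes and was added after its values were seen. Among the named genes, *LINC00888*, *LINC01578* and *LINC01029* had negative fitted changes under the spike-in scaling. Relative to the median gene their values were positive, at 0.30, 0.40 and 0.16, none of them called.

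**Figure D3:**
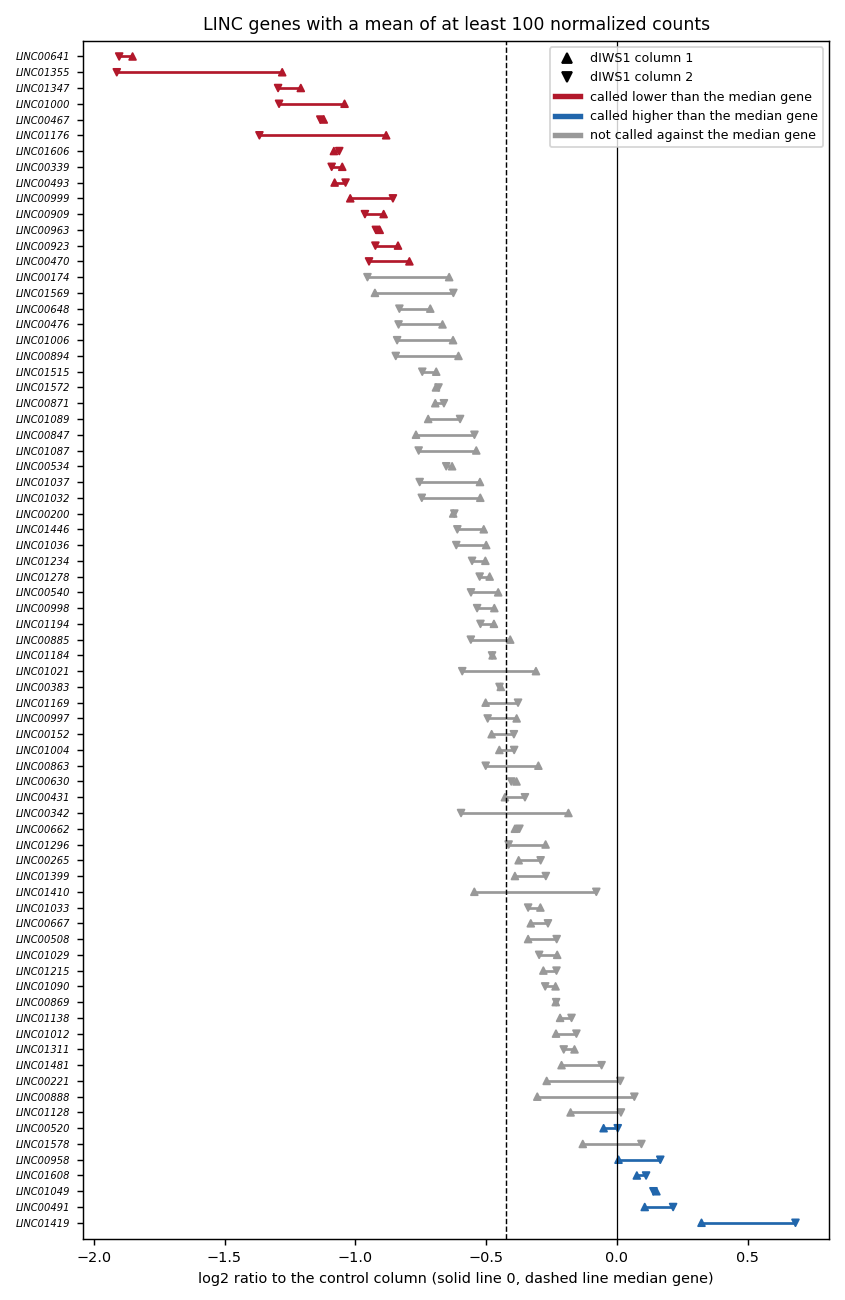
Log2 ratio to the control column (horizontal axis) of dIWS1 column 1 (upward triangles) and column 2 (downward triangles) for the 75 LINC genes whose mean reached 100 normalized counts, ordered by fitted change. Red marks the 14 called lower than the median gene, blue the 6 called higher and grey the 55 others, and the dashed line at -0.42 is the median gene.

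Agreement between the dIWS1 columns followed depth. The difference between the columns' log2 ratios had an SD of 0.184 over the 75 members with a mean of at least 100 and 0.567 over the 40 tested members below it. Among the 75, 52 were called lower, 1 higher and 22 were not called. The median SE of a fitted log2 fold change was 0.15 for these genes and 0.26 for the shallower ones. Across the 75 genes the columns' ratios had a Spearman rho of 0.91, a description over genes that share both libraries and the same control column.

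Many of the LINC genes with the lowest values lay downstream of coding genes. This grouping was chosen after the values were seen and is given without a test. For 107 tested members a distance could be measured from their start back to the end of the nearest protein-coding gene upstream on the same strand. Of the 27 that start within 50 kb of such an end, 9 (33.3%) were called lower than the median gene by limma voom and 0 higher, also 0 at an unadjusted p under 0.05. Of the 80 farther away, 5 (6.25%) were called lower and 4 higher. Among long non-coding RNA genes other than LINC, 22.2% were called lower within 10 kb, 12.7% from 10 to 50 kb and 12.3% beyond, and among protein-coding genes 6.44%, 3.45% and 3.93%. In the same classes 0 of 45, 0 of 63 and 4 of 235 of these other long non-coding RNA genes were called higher. For protein-coding genes the counts were 18 of 1273, 54 of 1943 and 146 of 4327. The 0 within 50 kb of coding ends was thus shared with other long non-coding RNA genes, but not with protein-coding genes. Over all genes tested 2.95% were called higher. The median log2 ratio was -1.0 within 10 kb (n = 9), -0.69 from 10 to 50 kb (n = 18) and -0.44 beyond. Column 1 gave -1.08, -0.65 and -0.45 for these classes, and column 2 gave -0.85, -0.76 and -0.47. With only members of a mean of at least 100, the medians were -1.09 (n = 4), -0.62 (n = 13) and -0.44 (n = 51). In the same classes protein-coding genes had -0.47 (n = 1273), -0.43 (n = 1943) and -0.38 (n = 4327), and long non-coding RNA genes other than LINC had -0.69 (n = 45), -0.66 (n = 63) and -0.57 (n = 235). Median control reads of LINC genes rose across the classes, from 119 to 250 and 381, and the part of this in the result was not tested. Of the 8 lowest called members with a mean of at least 100, 6 could be placed, and these 6 were within 50 kb. The 8 were picked for their low values. Low members with fewer reads lay on both sides of that bound. *LINC01521*, the lowest of all tested members, *LINC00412* and *LINC01126* start beyond 50 kb, and *LINC01372*, *LINC01136* and *LINC00562* within it.

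**Figure D4:**
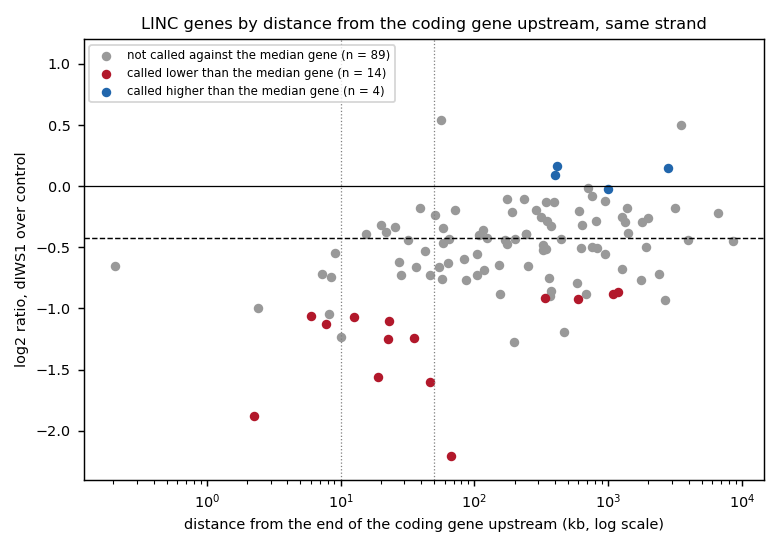
Log2 ratio of dIWS1 over control (vertical axis) of 107 LINC genes by distance from the end of the nearest coding gene upstream on the same strand (horizontal axis, kb, log scale), with dotted lines at 10 and 50 kb and a dashed line at the median gene. Of the 14 genes called lower (red), 9 lie left of the 50 kb line, and the 4 called higher (blue) lie right of it.

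The coding genes upstream mostly had smaller changes than the LINC genes behind them. *LINC00641* starts 2.25 kb past the end of *HNRNPC*, a gene for a pre-mRNA binding protein, which held 31918, 25949 and 30177 normalized counts and changed by -0.19 ± 0.14. *LINC00467* starts 7.81 kb past *TRAF5*, an adaptor of TNF receptor signalling, with 1543, 1389 and 1504 and a change of -0.09 ± 0.14. *LINC00493* starts 6.02 kb past *SEC23B*, a coat protein of vesicle transport, which changed by -0.45 ± 0.14. *LINC01355* starts 19.2 kb past *HNRNPR*, another pre-mRNA binding protein, with 6536, 4180 and 4842 and a change of -0.54 ± 0.15. *LINC01347* starts 22.7 kb past *CEP170*, a centrosomal protein, which changed by -0.44 ± 0.14. Over the 17 of the 27 whose upstream gene was tested, the LINC gene had the lower value in 14, with medians of -0.73 and -0.42. The exceptions were *LINC01234* behind *RBM19*, with -0.53 and -0.87, *LINC00528* behind *BCL2L13*, with -0.72 and -0.74, and *LINC00926* behind *TCF12*, with -0.56 for both. The 10 members whose upstream gene is not in the table had the same median of -0.73, and 4 of them were called lower than the median gene, against 5 of the 17. Whether reads in these members came from their own start or from the gene upstream cannot be told apart with 1 value per gene.

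Members that share a promoter region with a coding gene are divergent transcripts, made in the direction opposite to the gene. Of the members, 14 start within 1 kb of a coding start on the other strand, 10 start 1 to 10 kb from the nearest coding start and 87 start more than 10 kb away. This group overlaps the one above, since *LINC01136*, *LINC00893*, *LINC00894* and *LINC01006* are divergent and also among the 27 within 50 kb of a coding end. *LINC01136* is also among those of the 27 called lower than the median gene. The 14 divergent genes had a median log2 ratio of -0.72, and those more than 10 kb away had -0.46. Their medians of control reads were 101.5 and 308. With only members of 100 or more control normalized counts, the median log2 ratios were -0.73 (n = 7) and -0.44 (n = 60). The part of read depth in the result was not tested. For 12 of the 14 the coding partner is in the table. The LINC gene was the lower of the pair in 8 of these 12, with median fitted changes of -0.62 and -0.51. *LINC01136*, now *BTG2-DT*, had 87.2, 35.2 and 38.1 normalized counts and changed by -1.24 ± 0.24 (adjusted p = 2.56e-06). Its partner *BTG2*, an antiproliferative gene that p53 activates, starts 194 bases away and had 1072, 1064 and 1031, a change of -0.03 ± 0.14. The difference within the pair was not tested. *LINC00909*, now *ZNF407-AS1*, changed by -0.93 ± 0.17 beside -0.76 ± 0.15 for *ZNF407*, and *LINC00476* by -0.75 ± 0.14 beside -0.60 ± 0.15 for *ERCC6L2*. *LINC00893* and *LINC00894*, which lie beside the paralogues *EOLA1* and *EOLA2*, changed by -0.74 ± 0.20 and -0.73 ± 0.13. *LINC01481*, also called *PRANCR*, went the other way with -0.14 ± 0.13 beside -0.32 ± 0.14 for *CNOT2*, a subunit of the CCR4-NOT deadenylase. *LINC01351* and *LINC01534* had positive fitted values of 0.51 ± 0.38 and 0.52 ± 0.34 on at most 35 reads per column, not called, while *BRINP3* and *ZNF567* beside them had -0.56 and -0.22.

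**Figure D5:**
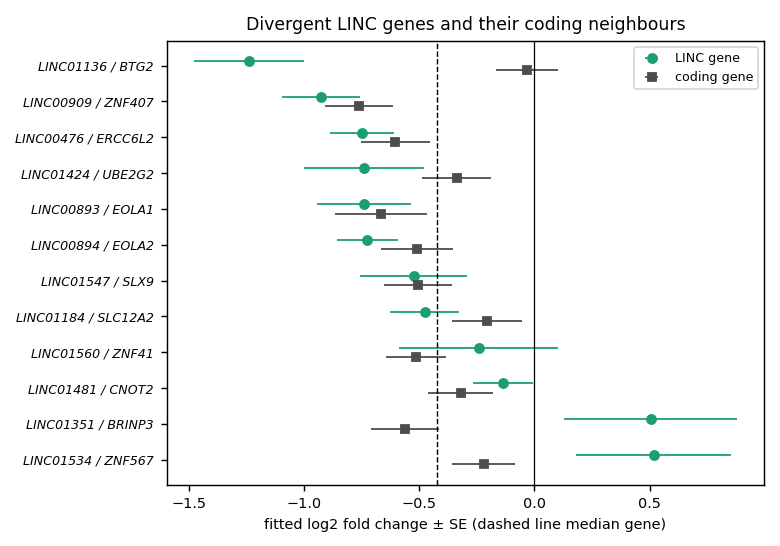
Fitted log2 fold change ± SE (horizontal axis) of 12 divergent LINC genes (circles) and the coding genes that start within 1 kb of them on the other strand (squares), with a dashed line at the median gene. *LINC01136* at -1.24 stands apart from *BTG2* at -0.03, and most other pairs overlap within their SE.

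The median log2 ratio of members did not rise or fall steadily with gene span. Members under 10 kb had a median log2 ratio of -0.60 (n = 53), those of 10 to 50 kb -0.42 (n = 34) and those of 50 kb or more -0.50 (n = 27). All genes in these classes had -0.47, -0.37 and -0.46. Of the members 15.1%, 20.6% and 7.41% were called lower than the median gene, against 4.49%, 4.98% and 4.82% of all genes. Their median control reads were 88, 1007 and 4272, and the part of this in the result was not tested. Spearman's rho between span and log2 ratio was 0.10 over 114 members, a description over genes of the same libraries. The longest member, *LINC00871*, fell by 0.68 on the log2 scale.

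RefSeq listed a promoter window for 74 members. Their median CpG ratio was 0.719, compared with 0.854 for the 7976 tested genes with a listed promoter and 0.580 for all 27305 listed promoters. The 11 of these members called lower than the median gene had a median CpG ratio of 0.350 and 54.7% G or C. Of the 74, 70 were tested, and 0 of these were called higher than the median gene, against 2.95% of all genes. CCAAT occurred in 8 of the 11 windows (72.7%) and in 41.9% of members, against 37.7% of tested genes and 35.7% of all promoters. GGGCGG occurred in 4 of the 11 (36.4%) and in 54.1% of members, against 71.8% of tested genes and 44.6% of all promoters. TATAAA occurred in 3 of the 11 (27.3%) and in 12.2% of members, against 5.28% of tested genes and 12.0% of all promoters. Members with a CpG ratio under 0.6 had a median log2 ratio of -0.66 (n = 30), and those at 0.6 or more had -0.49 (n = 40). All genes had -0.46 (n = 1146) and -0.41 (n = 6834) in these classes. A match of letters is a description of the window and does not mark a bound site.

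Genes of the pathways that end and destroy such transcripts were also listed. Of 28 genes for exosome subunits, its nuclear adaptors, the cap-binding complex and termination factors, 22 are in the table. Under the spike-in scaling 16 were called lower by limma voom and 0 higher (0 at an unadjusted p under 0.05), with a median log2 ratio of -0.39, near the -0.42 of all genes, of which 65.6% were called lower. Against the median gene 1 was called lower and 1 higher, where 4.85% and 2.95% of all genes were called.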

How the data were processed

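TT-seq libraries of dTAG-IWS1 K562 cells were analysed from the deposited gene table. The authors aligned reads with STAR 2.6.0 to GRCh38 with spike-in sequences, kept unique alignments, counted read pairs per RefSeq gene by strand, removed overlapping genes and kept genes above a threshold of reads per kilobase. Overlap and strand were thus handled before deposit, and a gene with near-identical copies keeps only its unique reads. The deposited signal values are means over library columns of counts divided by spike-in size factors, computed by the authors with DESeq2. The other columns hold the authors' comparison (fold change, standard error, statistic and p-values). Of these only the deposited log2 fold change was used, to decide which recovered column belongs to which group and to narrow the search for reads, and no comparison value is reported.

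Reads were recovered by writing each mean as whole multiples of 3 steps (0.495 normalized counts per read for the control, 0.252 and 0.272 for dIWS1). Of 10136 genes with a mean above 0, 10136 had 1 solution, as did all 119 members, and 0 of 600 means shifted by a small amount could be split. The control step fits 1 column entered 2 times, and 2 control libraries with the same size factor would look alike. The dIWS1 columns carry no replicate number. Size factors were 1.01, 0.993 and 0.919.

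Genes with a mean of at least 10 reads per column were fitted with limma voom (limma 3.58.1, R 4.3.3), with spike-in size factors as library sizes, moderated statistics, two-sided p-values and Benjamini-Hochberg adjustment over 9906 genes at 0.05. The plan foresaw reads, and the unit of the file is a mean of normalized counts. A second test took each change relative to the median gene. Ratios used a pseudocount of 0.5. The scripts were tested on simulated data. Spans, names and promoters came from RefSeq GRCh38.p14, with strands of members without a listed promoter from GENCODE release 44. Named members were the 8 lowest called with a mean of at least 100, those called higher, the 5 with most control reads, the 5 highest per kb, the 5 farthest on each side of the median gene, the 3 nearest the median member, those on lists of small-protein and later-named genes, and those holding small RNAs. Members, lists and tests were chosen with earlier results of these data known. Alternatives were other thresholds, filters, pseudocounts, scalings and tests, the control entered 2 times, and each dIWS1 column left out.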

Additional observations from a re-analysis of the deposited data

How the results depend on the processing

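The number of LINC genes called lower under the spike-in scaling stayed within 1.5 times the reported 76 with other p thresholds, filters and tests and with the control entered 2 times. It was 18 with a required change of at least 1 and 25 when scaled by total reads in genes. The number called higher, 1 in limma voom and also 1 at an unadjusted p under 0.05, was 0 at an adjusted p under 0.01 and with a required change of at least 0.5 or at least 1. It was 4 with the control entered 2 times and 15 when scaled by total reads. Against the median gene, 10 were called lower at an adjusted p under 0.01, 5 with a change of at least 1, 29 with the control entered 2 times and 10 in limma-trend, where 18 were reported. For those called higher, reported as 6, these settings gave 3, 0, 15 and 3. Shares of all genes were not computed at the other p thresholds or with a required change. Whether members differ from all genes at those settings therefore cannot be read from these counts. With the control entered 2 times, 16 of the 18 and 6 of the 6 were called again. The control entered 2 times adds a column that holds no new reads. Apart from that, the cause of these moves was not tested. The median log2 ratio of LINC genes was -0.061 when scaled by total reads. With 1 dIWS1 column left out it ran from -0.56 to -0.50, and its difference from all genes from -0.19 to -0.03. Leaving out a column leaves no residual degrees of freedom, so calls were not recomputed. Among the 24 named genes, *LINC00888* (0.30), *LINC01578* (0.40) and *LINC01029* (0.16) changed sign relative to the median gene. All 3 were uncalled under both scalings. Members outside the named genes also changed sign. Among them was *LINC00520*, at -0.02 and, relative to the median gene, 0.40, where it was called higher. Leaving out members that RefSeq lists under another biotype, an alternative chosen after seeing the data, gave 71 called lower and 16 lower than the median gene. No paired analysis was possible because the recovered columns carry no replicate numbers. Depth limits the members with a mean under 100 normalized counts, whose median SE was 0.26.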

Other observations

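Some of the lowest values belong to members with few reads. *LINC01521* had 34 control reads and 4 and 9 reads in the dIWS1 columns, and its fitted log2 fold change of -2.32 ± 0.37 was below that of every other tested member. *LINC00889* had 32, 21 and 4 reads, so that column 2 sets its value, and RefSeq gives its name as a synonym of *FGF13*, a fibroblast growth factor homologue. Its log2 ratio was -0.57 in column 1 and -2.73 in column 2. *LINC01144*, which was not tested, had 13, 5 and 1 reads. *LINC01296*, now the pseudogene *DUXAP9*, has near-identical copies in the genome, and its 1393, 1153 and 1045 normalized counts hold only reads that aligned to 1 place.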
